A study of Homo sapiens with 6 samples.

Results

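The kynurenine pathway, the main route by which cells break down tryptophan, was described here through 8 enzyme genes: IDO1, IDO2, TDO2, AFMID, KMO, KYNU, HAAO and QPRT. They were chosen by name as tryptophan-degrading enzymes, and each was found in 1 of 55868 named loci of the authors' deposited count table and in 1 locus of the deposited FPKM table (FPKM, fragments scaled for transcript length and sequencing depth). The cells were EndoC-βH1, an immortalised human pancreatic beta cell line, so all values come from a single line grown in culture. Messenger RNA was sequenced in 3 control libraries and in 3 libraries of cells exposed to a cocktail of IL-1β at 5 ng/ml, TNF-α at 10 ng/ml, IFN-γ at 50 ng/ml and IL-17 at 100 ng/ml, the cytokines of an inflamed islet. Both groups shared the medium, which held 11 mM glucose and 10 mM nicotinamide, a precursor of NAD. The sample labels call the controls cells before exposure, whereas the extraction protocol has cells with or without cytokines for 24 h, so time in culture and the cytokines cannot be told apart from these sources. No label says whether the libraries of a group are separate cultures. A p-value here reflects the spread among these libraries alone, which may be technical.

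The tables used here give 1 comparison, cytokines against control, with a mean over all 6 libraries, a log2 fold change and its standard error (SE) for each locus, and 1 FPKM per group. No value per library was used, so whether single libraries of the groups overlap was not tested. Group means below, in normalized counts per library, were derived from the deposited overall mean and log2 fold change. On average a library held 40881975 normalized counts. A locus is called higher or lower where the authors' DESeq adjusted p in the deposited table was under 0.05. Of 12 beta cell markers, the authors' table called 8 lower and 2 higher, beside 19.7% and 18.0% of all loci tested. PDX1 stood at 17183 normalized counts in control and 16950 with cytokines in the deposited table. PDX1 and NKX6-1 were not past the authors' threshold (adjusted p = 0.562 and 0.978). SLC30A8, at 33893 and 21850, was called lower. INS was counted in a locus of 7 symbols, at 56569 and 38102, which was called lower. Less abundant markers included MAFA, at 634 and 205, G6PC2, at 670 and 200.2, and KCNJ11, at 141 and 94.4, all called lower. IAPP, counted in a locus of 6 symbols at 148 and 704, was called higher. ABCC8, at 6202 and 6861, was the other marker called higher. What part the fall of some beta cell markers has in the fall of AFMID, HAAO and QPRT was not tested.

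Tryptophan enters the pathway when IDO1, IDO2 or TDO2 opens its indole ring to give N-formylkynurenine, which AFMID, the formamidase, turns into kynurenine. KMO then adds a hydroxyl group, KYNU cleaves the product to 3-hydroxyanthranilate, HAAO opens that ring, and QPRT joins the resulting quinolinate to a ribose phosphate, the entry into NAD synthesis. IDO1 is known as a target of interferon and as a brake on T cells, which depend on tryptophan. TDO2 is the liver's enzyme for dietary tryptophan, and KMO and KYNU are known for their expression in liver and in myeloid cells.

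The called genes of the first step and those of later steps moved in opposite directions. Of the 8 genes, 7 had an adjusted p in the authors' deposited table, and 5 of these differed between the groups, beside 37.7% of all 30206 loci tested. The first enzymes IDO1 and TDO2 were the 2 called higher (18.0% of all loci tested), and AFMID, HAAO and QPRT were the 3 called lower (19.7%). HAAO and QPRT were counted in loci shared with other genes. KMO and KYNU, in the middle, did not pass the threshold. The authors' FPKM table tested 6 of the 8 loci and called 5, the same 5 genes, beside 35.7% of the 21865 loci it tested. The middle log2 fold change of the 7 genes in the authors' deposited count table was -0.50, against 0.05 over all loci tested.

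**Figure D1:**
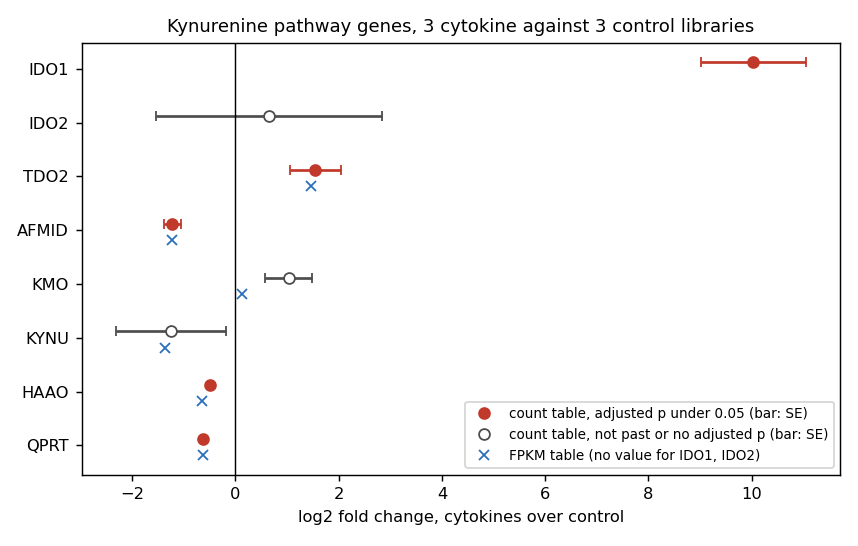
Log2 fold change, cytokines over control (x axis), of the 8 genes in pathway order (y axis). Circles with SE bars give the deposited count table, filled where the adjusted p was under 0.05, and crosses give the deposited FPKM table. IDO1 stands at 10.03, AFMID, HAAO and QPRT lie between -1.22 and -0.50, and the 2 tables differ most for KMO, at 1.03 and 0.13.

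IDO1, the interferon-inducible dioxygenase, was nearly silent in control cells and became the leading first enzyme of the pathway with cytokines. It lies on chromosome 8 (hg38, 39902275 to 39928790, plus strand, GENCODE release 44). Its mean was 0.636 normalized counts per library in control and 666 with cytokines in the authors' deposited table. Summed over the 3 control libraries this is 1.91 normalized counts. Control means of such loci in the deposited table fell on separate steps, the lowest at 0.176, the next at 0.343 to 0.344 and the next at 0.634 to 0.64. IDO1 sat on the last of these, which is the step of about 2 reads over the group. The authors' deposited log2 fold change was 10.03 ± 1.02 (SE, adjusted p = 1.06e-21), a ratio of 1047 with a 95% interval of 261 to 4211 from that SE. The control level rests on those few reads, and the interval is wide. The authors' deposited FPKM table lists control at 0 and cytokine-exposed cells at 13.4 FPKM (q = 0.000232). That level was above those of 69.8% of the 21865 tested loci in cytokine-exposed cells in the deposited FPKM table. A long noncoding RNA, ENSG00000253939, overlaps IDO1 on the opposite strand over 25016 bases, and it was not matched to a locus of the tables.

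The 5 single-gene loci of at least 50 normalized counts with deposited log2 fold changes nearest to that of IDO1, among 11483, were SAMD9L (10.08), CD38 (10.13), APOL3 (10.47), IFI44L (10.54) and CXCL8 (9.44). Likeness here is the distance in 1 fold change between 2 groups, 0.05 for SAMD9L and 0.59 for CXCL8, and is no measure of a shared pattern over samples. CD38 degrades NAD, the end product of the route that IDO1 opens, and it held 2.23 normalized counts in control and 2494 with cytokines according to the authors' deposited table. APOL3 had the same control step as IDO1, at 0.636 normalized counts, so its fold is as uncertain. IFI44L lay on the step below, at 0.343 normalized counts in control, and its SE was larger, at 1.18.

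IDO2, the neighbouring paralog, was barely detected in either group. It begins 5823 bases past the end of IDO1 on the same strand (chromosome 8, 39934614 to 40016392). All 6 libraries together held 4.82 normalized counts of IDO2 in the deposited table, with group means of 0.624 and 0.981 and no adjusted p. Its log2 fold change of 0.65 ± 2.19 in the deposited table has an interval from -3.63 to 4.94, so neither a rise nor a fall could be detected at this depth. Its FPKM in the authors' deposited table was 0 for control and 0.00670 for cytokine-exposed cells.

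TDO2, the third enzyme of the first step, rose from a low level. It lies on chromosome 4 (155854738 to 155920406, plus strand) and stood at 7.73 normalized counts in control and 22.7 with cytokines. The authors' deposited fold change was 1.55 ± 0.50 on the log2 scale (adjusted p = 0.0063). The deposited FPKM table gave 0.132 FPKM in control and 0.363 FPKM with cytokines, a log2 fold change of 1.46 (q = 0.0211). Adding the 3 dioxygenase genes, the first step went from 0.132 to 13.8 FPKM in the deposited table, and IDO1 made up 97.3% of it with cytokines. The ASIC5 gene overlaps TDO2 on the opposite strand over 11540 bases, and its mean was 0.181 normalized counts in the deposited table. CTSO, singled out after its values were seen, ends 1173 bases from the end of TDO2 on the opposite strand. It held 406.5 normalized counts in control and 3925 with cytokines, and whether its reads entered the TDO2 value was not tested.

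AFMID, which takes the product of the first step to kynurenine, fell to 42.9% of its control level in the authors' deposited table. The gene (chromosome 17, 78187358 to 78207702, plus strand) stood at 206.5 normalized counts in control and 88.5 with cytokines. The authors' deposited fold change was -1.22 ± 0.16 on the log2 scale (adjusted p = 6.77e-13). Its FPKM in the authors' deposited table were 6.28 and 2.67 (log2 -1.23, q = 0.000232). In bulk RNA, fewer cells of a kind and less RNA per cell cannot be told apart, here and for the other genes that fell. By whole loci, the first-step genes together stood at 0.0211 of the AFMID level in control and at 5.16 times that level with cytokines, both in FPKM of the deposited table. Transcripts named AFMID held only 2.98 FPKM of that locus in control and 1.46 with cytokines.

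AFMID starts back to back with TK1, the thymidine kinase of dividing cells, which runs the other way on the minus strand. TK1 fell by 1.31 ± 0.07 (log2) in the authors' deposited table (adjusted p = 5.34e-88), with 1427 normalized counts in control and 576 with cytokines. TK1 was singled out after its values were seen. The 124 bases between the annotated ends of the genes (RefSeq window of GRCh38.p14, chr17:78187234-78187357, plus strand) are shown because both starts share them. Capitals mark matches, on either strand, to the GC box GGGCGG and the TATA box TATAAA.
AFMID-TK1: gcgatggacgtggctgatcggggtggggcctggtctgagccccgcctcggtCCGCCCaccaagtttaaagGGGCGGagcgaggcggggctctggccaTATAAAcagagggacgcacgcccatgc
The stretch holds 2 GC boxes and 1 TATA box, and the TATA box lies nearest to the AFMID side. Among 35116 promoter windows of 300 bases in the RefSeq table, 45% held GGGCGG and 11.5% held TATAAA on at least 1 strand. A match is a description of the letters and not a binding site.

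KMO, the hydroxylase that commits kynurenine to the NAD branch, stayed at a low level in both groups. The gene lies on chromosome 1 (241532134 to 241595642, plus strand) and stood at 11.7 normalized counts in control and 23.8 with cytokines. The authors' deposited log2 fold change was 1.03 ± 0.45 with an interval from 0.15 to 1.90 and did not pass the threshold (adjusted p = 0.0565). It passed with the authors' values centred on abundant loci (adjusted p = 0.0419) and when loci under 10 counts were left out (adjusted p = 0.0389). The deposited FPKM table gave 0.253 and 0.276 FPKM, a log2 fold change of 0.13 (q = 0.913). KMO overlaps OPN3 on the opposite strand over 5541 bases, and the libraries were made with a kit that keeps strand, but the sources used here do not state whether the counting used it. OPN3, counted with CHML, stood at 1101 and 553 normalized counts in the deposited table, and the part of its reads in the KMO value was not tested.

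KYNU, the kynureninase that follows, was detected at a few reads per library. All 6 libraries together held 24.5 normalized counts of KYNU (chromosome 2, 142877657 to 143055833, plus strand) in the deposited table. Its group means were 5.74 in control and 2.41 with cytokines, with the authors' deposited log2 fold change of -1.25 ± 1.06 and an interval from -3.33 to 0.83 (adjusted p = 0.423). The authors' deposited FPKM table lists 0.0316 and 0.0122 FPKM and gave no test. Reads of the pseudogenes KYNUP1, KYNUP2 and KYNUP3 could be shared with KYNU, and their means were 1.46, 1.13 and 1.28 normalized counts in the deposited table.

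HAAO and QPRT, the last enzymes before NAD synthesis, lay in the loci with the highest FPKM of the pathway, and these loci fell to 70.7% and 64.6% of control in the authors' deposited count table. HAAO (chromosome 2, 42767089 to 42792593, minus strand) shares its locus with the receptor gene OXER1. That locus held 2680 normalized counts in control and 1896 with cytokines, and the authors' deposited log2 fold change was -0.50 ± 0.04 (adjusted p = 4.08e-32). Per length, the authors' deposited table gave the whole locus 32.0 and 20.6 FPKM (log2 -0.64, q = 0.000232). Transcripts named HAAO made up 63.6% and 56.5% of this, or 20.4 and 11.7 FPKM, and 11 assembled transcripts without a gene name and OXER1 the rest. QPRT (chromosome 16, 29663279 to 29698699, plus strand) shares its locus with SPN and the noncoding AC009133.22. That locus held 4899 and 3165 normalized counts, and the authors' deposited log2 fold change was -0.63 ± 0.04 (adjusted p = 1.04e-55). The deposited FPKM table gave 66.5 and 43.0 FPKM (log2 -0.63, q = 0.000232), above 93.9% of tested loci in control and 89.1% with cytokines. By whole loci, QPRT stood highest in FPKM of the deposited table in both groups, then HAAO, and with cytokines IDO1 came next, ahead of AFMID. By transcripts that carry the gene's own name, QPRT still came first with cytokines (30.0 FPKM), but IDO1 (13.4) stood above HAAO (11.7). The spread of FPKM between libraries is not in the tables used here, so which neighbours in this order differ was not tested.

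**Figure D2:**
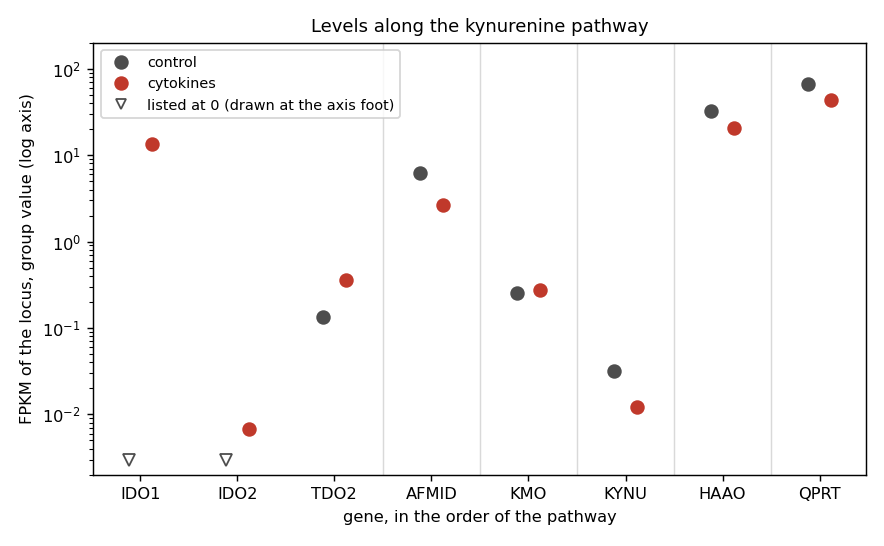
FPKM of the 8 loci as listed in the deposited table (y axis, log scale), in pathway order, for control and cytokine-exposed cells; open triangles mark loci listed at 0. With cytokines IDO1 reaches 13.4 FPKM, while KMO stays at 0.276 and KYNU at 0.0122, far below the whole loci of HAAO (20.6) and QPRT (43.0).

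Transcript levels along the route were uneven in both groups. With cytokines the first step stood at 50 times the KMO level and in control at 0.524 times, both in FPKM of the authors' deposited table. KMO and KYNU were the lowest of the steps with cytokines. KYNU, KMO, IDO2 and TDO2 each had a mean under 20 normalized counts in the deposited table, and IDO1 was as thinly covered in control. RNA levels say nothing of enzyme amounts or of kynurenine made.

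KMO, KYNU and IDO1 are also expressed by myeloid cells, so markers of those cells were read in the same tables. Of 12 myeloid markers, 8 had a mean under 5 normalized counts in the deposited table, and ITGAX was listed at 0. PTPRC, the common leukocyte antigen, stood at 2.71 normalized counts in control and 0.657 with cytokines in the deposited table. LYZ, FCER1G, ITGAM, SPI1 and CSF1R had higher values with cytokines, but none of them passed the threshold. CSF1R, the most abundant of these, stood at 9.10 and 17.3 normalized counts. The median log2 fold change of the 9 myeloid markers tested was 0.92, against 0.05 over all loci tested. The 10 markers counted alone in their locus summed to 143 and 119 normalized counts, most of it CD14 at 92.9 and 75.4. None of the 9 tested was called higher, beside 18.0% of all loci tested. LYZ, FCER1G and ITGAM had log2 SE of 1.58, 1.34 and 1.55, so a rise in them could hardly be called. AIF1 (log2 -1.41) and the locus holding CD68 with abundant EIF4A1 (-0.12) were called lower in the authors' deposited table, beside 19.7%. Of 9 hepatocyte markers, 5 had a mean under 5 normalized counts in the deposited table, and ALB stood at 4.23 and 3.19. Of the 7 tested, the authors' table called 1 higher and 1 lower, beside 18.0% and 19.7% of all loci tested. The higher one was SERPINA1, a protease inhibitor gene, at 19.7 and 51.1 normalized counts (log2 1.37 ± 0.34, adjusted p = 0.000206 from the authors). The lower one was TTR, which islet cells also make, at 35144 and 30936. What part these markers have in the rise of TDO2 was not tested.

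The transcript table lists 66 annotated transcripts of the 8 genes, of which 18 had levels high enough for the authors' Cuffdiff test. Of these, 7 passed at q under 0.05 in the authors' deposited table, beside 9.87% of 95649 transcripts tested. Of the 7, 5 were higher (5.17% of all tested) and 2 lower (4.70%). All 4 tested IDO1 transcripts were among the higher ones, each listed at 0 FPKM in control, so higher was the only direction open to them. They belong to the same gene, so the 5 higher transcripts are not 5 separate results.

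For IDO1, the coding transcript ENST00000522495, which spans the gene from 39902375 to 39928426, reached 9.58 FPKM with cytokines in the deposited table, 71.5% of the IDO1 total. A transcript with a retained intron near the end of the gene, ENST00000523779 (39924720 to 39928138), made up 18.2% of that total. For TDO2, the coding transcript ENST00000536354, which starts at 155903696, went from 0.0924 to 0.276 FPKM in the deposited table (log2 1.58, q = 0.0346). It was the one TDO2 transcript tested and held 69.8% of the gene's FPKM in control and 76.1% with cytokines.

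For HAAO, the full coding transcript ENST00000294973 fell by 0.98 on the log2 scale, from 16.5 to 8.34 FPKM, in the authors' deposited table (q = 0.000833). The retained-intron transcripts ENST00000406924, at 1.34 and 1.19 FPKM, and ENST00000406007, at 1.12 and 1.31 FPKM, did not pass the threshold. The coding transcript's share of the HAAO total was 81.0% in control and 71.6% with cytokines in the deposited table. A change in that share was not tested. OXER1 in the same locus stood at 2.65 and 2.36 FPKM in the deposited table (q = 0.889).

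For QPRT, the coding transcript ENST00000395384 went from 39.7 to 25.7 FPKM in the deposited table (log2 -0.63, q = 0.000833) and held 86.3% and 85.9% of the QPRT total. QPRT-named transcripts made up 69.2% of the locus FPKM in control and 69.7% with cytokines, and AC009133.22 stood at 17.3 and 10.6 FPKM (q = 0.114). SPN, which encodes a surface protein of white blood cells, was listed at no more than 0.0494 FPKM for any transcript in the deposited table. The value of the locus thus came mostly from QPRT and AC009133.22.

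For AFMID, the locus was called lower but no transcript was. All 4 tested AFMID transcripts had lower values with cytokines in the deposited table, the main one, ENST00000591952, at 1.33 and 0.610 FPKM (q = 0.139). The locus was split over 29 transcripts, 14 of them assembled without a gene name, and the named ones held 47.5% of its FPKM in control. For KMO, ENST00000366555 was listed at 0.130 FPKM in control and 0 with cytokines, while the full-length ENST00000366559 was listed at 0.0348 and 0.111 FPKM, and no KMO transcript was tested.

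**Figure D3:**
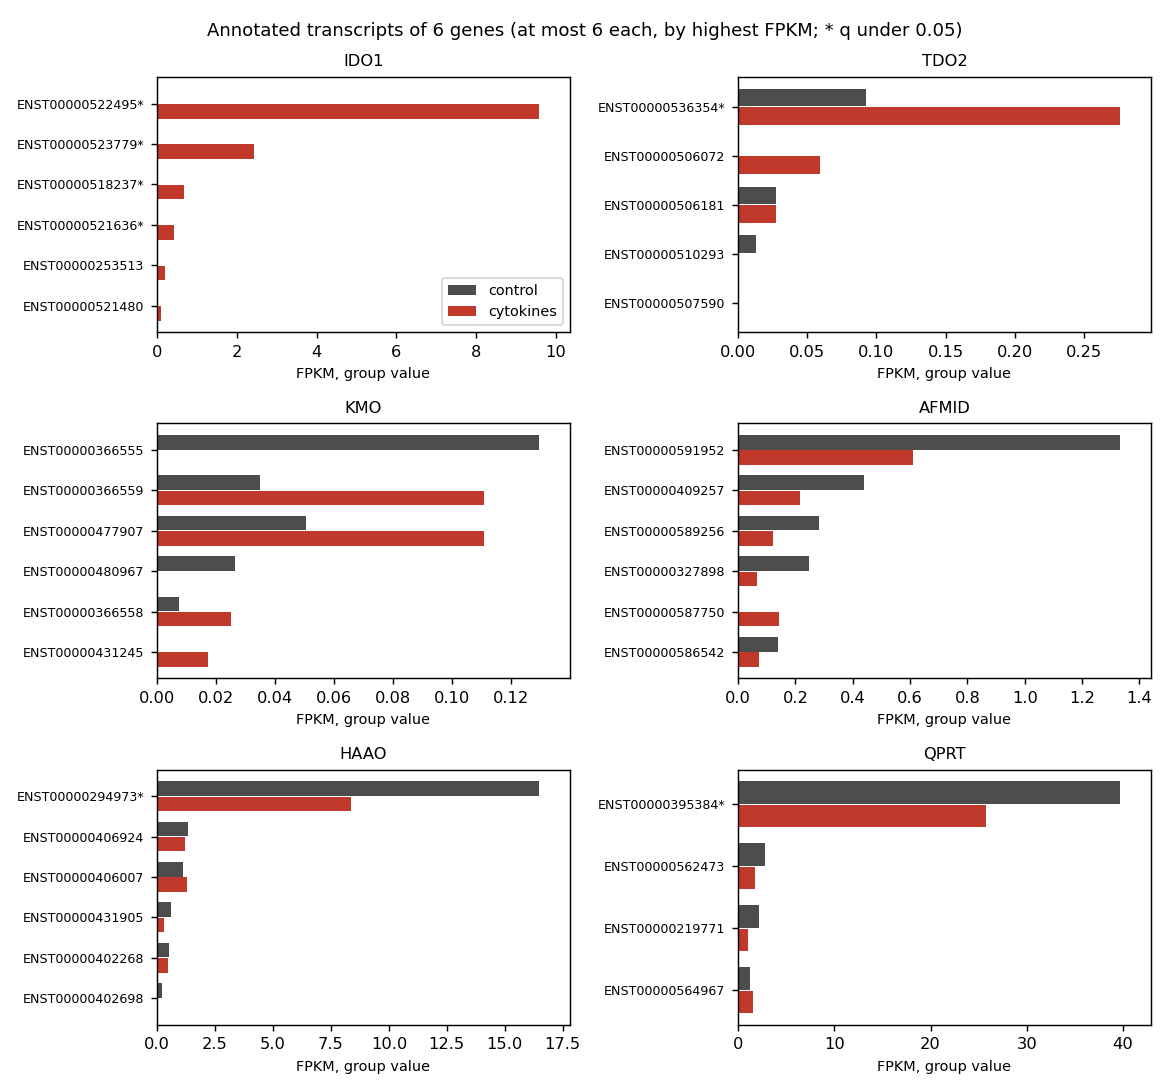
FPKM of annotated transcripts (x axis, a scale of its own per gene) in control and cytokine-exposed cells for 6 of the genes, at most 6 transcripts each; an asterisk marks q under 0.05 in the deposited table. The IDO1 transcripts are all at 0 in control, and ENST00000294973 of HAAO drops from 16.5 to 8.34 FPKM.

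Promoter windows of 300 bases, 250 before and 50 after the start, were found for 6 of the 8 genes in the RefSeq table. IDO1 and IDO2 had no window there, so the search does not cover them. They were searched on both strands for the cores of the interferon elements ISRE (GAAA and GAAA with any 2 bases between) and GAS (TTCNNNGAA). None of the 6 genes held the ISRE core, which 3.57% of all windows hold. KYNU held the GAS core 2 times, and 7.66% of all windows hold it at least once. The window of TDO2, which rose, held neither. Bases 110 to 11 before the starts of TDO2 (chr4:155903586-155903685, plus strand) and KYNU (chr2:142877554-142877653, plus strand) are shown to set these windows side by side. Capitals mark the GAS core, the CCAAT box (CCAAT, or ATTGG on the other strand) and the TATA box TATAAA on either strand.
TDO2: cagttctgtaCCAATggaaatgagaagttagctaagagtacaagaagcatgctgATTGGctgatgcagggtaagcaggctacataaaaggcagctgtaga
KYNU: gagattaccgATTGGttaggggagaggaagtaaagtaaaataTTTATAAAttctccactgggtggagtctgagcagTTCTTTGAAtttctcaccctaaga
TDO2 holds 2 CCAAT boxes here and KYNU holds 1, with overlapping TATA boxes and the GAS core TTCTTTGAA. A missing match says only that these letters are not in the window.

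Genes around the pathway were read from 7 lists with 68 genes. Of 64 loci with an adjusted p, 25 were called higher and 23 lower in the authors' deposited table, beside 18.0% and 19.7% of all loci tested, the background for each list that follows as well. Their median log2 fold change was -0.03 against 0.05 over all loci. KYAT1, NADK, PARP2, WARS2, DDC, IL4I1, BIN1, PTPN11 and EIF2AK4 are named for their roles and GPR35 for its call, chosen after their values were seen.

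The list of genes that act on IDO1 expression or signalling had 10 loci, of which the authors' table called 8 higher and 2 lower (median 0.72). IRF1, a transcription factor through which IFN-γ acts on IDO1, rose by 6.67 ± 0.03 and IRF8, of the same family, by 2.19 ± 0.04 (log2) according to the authors' deposited table. SOCS3, which targets the IDO1 protein for degradation, went from 1.59 to 155 normalized counts and SOCS1 from 54.1 to 3610. BIN1, a repressor of IDO1 expression, stood at 0.52 ± 0.04 in the deposited table. EIF2AK4, the kinase that senses uncharged tRNA when amino acids run out, fell by 0.23 and the phosphatase gene PTPN11 by 0.37, as the authors' deposited table gives them.

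Enzymes on side branches of the pathway had 7 loci in the authors' deposited table, 2 called higher and 4 lower (median -0.36). AADAT, an aminotransferase that turns kynurenine into kynurenic acid, fell by 0.76 ± 0.11 (353 normalized counts in control, 208 with cytokines), and GCDH, of the glutaryl-CoA branch, by 0.72 ± 0.06 in the same deposited table. GOT2, an abundant mitochondrial aminotransferase that also acts on kynurenine, fell by 0.26 ± 0.03, and DHTKD1, a lysine and tryptophan breakdown enzyme, rose by 0.52 ± 0.05. The aminotransferase gene KYAT3, counted with RBMXL1, rose by 0.66 ± 0.03 in the deposited table. KYAT1, counted with C9orf114, stood at -0.36 ± 0.06 in the deposited count table and at -0.08 (q = 0.812) in the deposited FPKM table. ACMSD, which diverts the product of HAAO away from quinolinate, held 17.2 and 11.8 normalized counts and was not past the threshold (adjusted p = 0.46 from the authors).

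NAD synthesis from other precursors had 9 tested loci, of which the authors called 4 higher and 2 lower (median 0.23). NAMPT, the rate-limiting enzyme of NAD salvage from nicotinamide, rose by 2.83 ± 0.03 in the authors' deposited table, with 2618 normalized counts in control and 18639 with cytokines. NMNAT2 rose by 1.04 ± 0.03 and NADSYN1, counted with a noncoding RNA, by 0.65 ± 0.05. NADK and NADK2, which phosphorylate NAD, fell by 0.40 and 0.47 in the deposited table. Per length, NAMPT went from 15.4 to 115 FPKM in the deposited table. The shared locus of QPRT, the entry from tryptophan, went from 66.5 to 43.0 FPKM, and transcripts named QPRT from 46.0 to 30.0 FPKM.

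Enzymes that use NAD or nicotinamide had 13 tested loci, of which the authors called 6 higher and 3 lower (median 0.04). The higher ones included CD38 and PARP14, a mono-ADP-ribosyltransferase induced by interferon, which rose by 6.42 ± 0.04, and PARP9, its partner in interferon signalling, which rose by 4.22 ± 0.04 in that table. NNMT, which methylates nicotinamide, counted with AP002518.1, stood at 5.73 and 554 normalized counts (authors' log2 6.59 ± 0.35). PARP1 and PARP2, the DNA damage sensors, fell by 0.48 and 0.89 in the deposited table. The sirtuins SIRT1 (-0.07 ± 0.04), SIRT2 (0.04 ± 0.04) and SIRT3 (-0.03 ± 0.09) were not past the authors' threshold, though SIRT2 passed with values centred on abundant loci (log2 0.10, adjusted p = 0.0347).

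Tryptophan transporters had 7 tested loci, of which the authors called 0 higher and 4 lower (median -0.13). SLC7A8, the most abundant, fell by 0.24 ± 0.02, and SLC16A10, in a locus of 3 symbols, by 0.48 ± 0.03. SLC3A2 (-0.13) and SLC36A4 (-0.11), called lower in the count table of the authors, had q of 0.565 and 0.535 in the deposited FPKM table, and SLC36A4 also lost its call with the values centred on abundant loci (log2 -0.05, adjusted p = 0.288). SLC7A5, the light chain of the main transporter of large neutral amino acids, stood at -0.15 ± 0.09 (adjusted p = 0.173 from the authors).

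Other uses of tryptophan had 10 tested loci, of which the authors called 2 higher and 6 lower (median -0.20). WARS, which loads tryptophan onto its tRNA, held 2936 and 229500 normalized counts (log2 6.29 ± 0.02), while its mitochondrial counterpart WARS2, counted with TBX15, stood at -0.31 ± 0.07 in the authors' deposited table. TPH1, the first enzyme of serotonin synthesis, stood at -0.60 in a locus of 3 symbols, and DDC and MAOA fell by 0.35 and 0.64, all in the authors' deposited table. MAOB, an oxidase of amines, rose by 1.18 ± 0.18, with 70.2 normalized counts in control and 160 with cytokines. IL4I1, a tryptophan oxidase gene in a locus of 5 symbols, was called lower at -0.09 in the authors' deposited count table but not in their FPKM table (q = 0.828) or with values centred on abundant loci (adjusted p = 0.36).

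The aryl hydrocarbon receptor, which kynurenine can activate, was read in a list with targets and related genes. Of 8 tested loci the authors called 3 higher and 2 lower (median 0.02). AHR stood at 0.13 ± 0.08 (adjusted p = 0.216) and CYP1A1, a classic target, at -0.48 ± 0.18 (adjusted p = 0.023) in the authors' deposited table. TIPARP and NQO1 rose by 0.44 ± 0.05 and 0.53 ± 0.07 in the deposited table. The other locus called higher was that of AHRR, counted with PDCD6 and CTD-2228K2.1 (0.17 ± 0.03). The other called lower was that of GPR35, counted with CAPN10 (-0.11 ± 0.04, adjusted p = 0.0167 from the authors). The GPR35 locus had q = 0.859 in the deposited FPKM table. With the authors' deposited fold changes centred on abundant loci, AHR was past the threshold at 0.18 (adjusted p = 0.0485) and CYP1A1 was not at -0.42 (adjusted p = 0.0512). The authors' deposited FPKM table has AHR in the other direction, at 3.29 and 2.92 FPKM (log2 -0.17, q = 0.274).

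**Figure D4:**
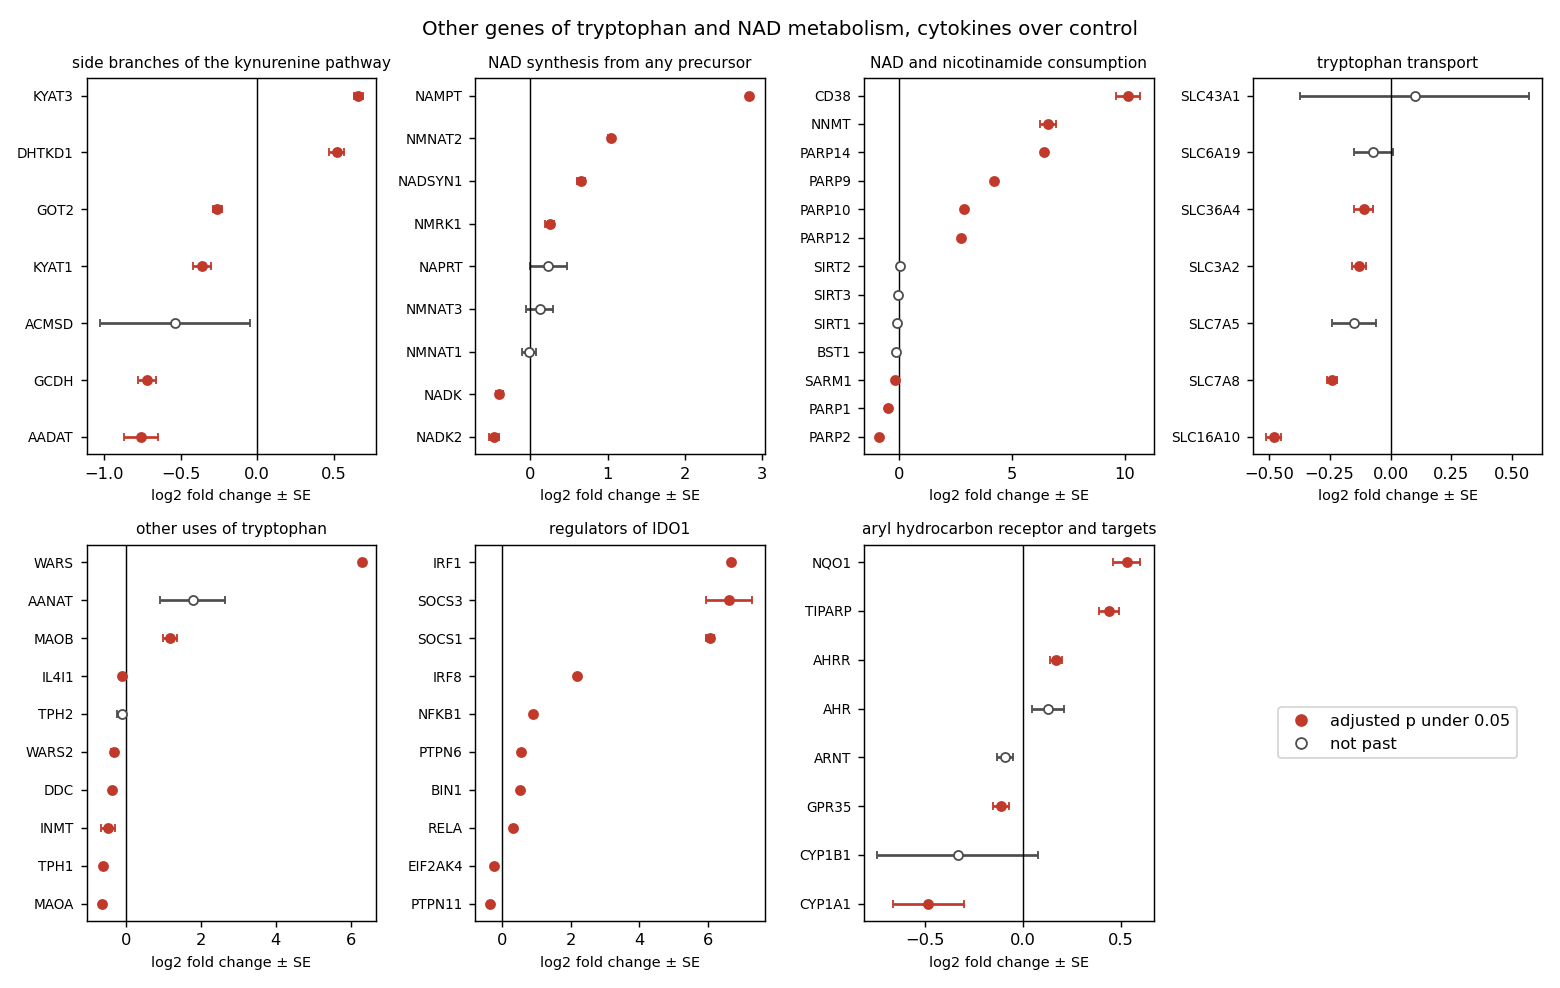
Log2 fold change with SE, cytokines over control, in the deposited count table for the tested genes of 7 lists around the pathway (x axis, a scale of its own per list); filled circles had an adjusted p under 0.05. CD38 (10.13), IRF1 (6.67), WARS (6.29) and NAMPT (2.83) stand at the top of their lists, and no tryptophan transporter is called higher.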

How the data were processed

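Poly(A) RNA of 6 libraries was sequenced. The tools the authors used were, per the submitters' processing notes, STAR 2.5.2b, StringTie, Cuffdiff 2.2.1, DESeq, bcl2fastq and FastQC 0.10.1, with genome build hg38. The sources used here do not state the read counter, the strand setting or the annotation. For each locus the authors deposited a signal, the mean of size-factor-scaled counts over all libraries. The log2 values are the deposited fold changes with their SE, and the score, a deposited Wald statistic, equals their quotient within 9.66e-13. The p-values, adjusted p-values and q-values are those the authors computed with DESeq or Cuffdiff, except under re-centring or another filter, where adjusted p-values were recomputed here from the deposited values. The FPKM values are group values as the authors deposited them, and the smallest Cuffdiff p was 5e-05.

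Benjamini-Hochberg adjustment over 30206 loci returned the authors' adjusted p within 1.53e-15. The tables list 61695 loci, and the 5827 that carry no gene name took up 1.339% of the counts. Group means and 95% intervals (1.96 SE) were computed with Python 3.11.15, pandas 2.3.3, numpy 2.4.6 and scipy 1.17.1, and the functions were tested on simulated data. Genes were matched by symbol. KYAT1 and KYAT3 were matched through RefSeq synonyms, and the TATA and GC motifs added, after values were seen. Coordinates and transcript types are from GENCODE release 44 (hg38). The genes named were the 8 pathway genes, up to 4 called genes per list by size of change among loci of at least 50 counts, the most abundant one, genes not past the threshold, and the 5 loci nearest to IDO1; others are named in the text as chosen after their values were seen. Members and lists were chosen with earlier results of these data known, and 1 gene of the lists is not reported here. Alternatives were the FPKM table, re-centring, other filters on low counts, loci of 1 symbol and a threshold of 0.01.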

Additional observations from a re-analysis of the deposited data

How the results depend on the processing

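The count of kynurenine genes called, 5 as deposited, was 5 with the FPKM table, with no filter on low counts and at an adjusted p under 0.01, and 6 (3 higher, 3 lower) after re-centring on the median of loci of at least 1000 counts (-0.056) or over loci of at least 10 counts. The gene gained in both was KMO, with adjusted p of 0.0419 and 0.0389; over its alternatives this p ran from 0.0389 to 0.913. Over loci of 1 symbol the count was 3 of 5 tested, because HAAO and QPRT share their loci. None of the 8 genes changed direction under these alternatives. IDO1 and IDO2 have no finite fold change in the FPKM table. Transcripts called were 7, or 6 at q under 0.01 (TDO2 lost), and 7 with at least 0.1 FPKM. Related loci called were 48 of 64 tested, with 36 to 48 over the alternatives. The 36 were of 46 tested loci of 1 symbol, so the lower count came with fewer loci tested. No paired analysis was possible because the tables used here hold no values per library, and leaving out each replicate was not run for the same reason. Genes under 20 counts are limited by depth.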

Other observations

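Protein-coding neighbours within 10 kb of the 8 genes were singled out after their values were seen. CTSO, a lysosomal cysteine protease gene whose end lies 1173 bases from that of TDO2 on the opposite strand, held 406.5 normalized counts in control and 3925 with cytokines in the authors' deposited table (log2 3.27 ± 0.06). BIRC5, the survivin gene 6483 bases past AFMID, held 4611 and 2194 normalized counts (log2 -1.07 ± 0.04, adjusted p = 4.82e-200 from the authors). Whether CTSO reads entered the TDO2 value was not tested.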
